A study of Zea mays with 48 samples.

Results

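The chloroplast ATP synthase genes atpF, atpB and atpH were followed in maize leaf RNA across 16 groups of genotype, stage and temperature. They are 3 genes of the plastid genome (ZemaCp019, ZemaCp031 and ZemaCp018), taken by their identifiers from a table of 33309 genes that holds 61 plastid rows. All 3 were above 0 in each of the 48 libraries and passed the filter on low values, under which 3 libraries or more had to reach 1 FPKM. The filter left 22794 genes in all. FPKM counts fragments for each kilobase of a transcript and relative to the fragments mapped in that library.

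The chloroplast ATP synthase sits in the thylakoid membrane and uses the proton gradient built by photosynthetic electron transport to make ATP. Its membrane part, CF0, holds the proton channel subunit a (atpI), the rotating ring of c subunits (atpH) and the stator arm, to which subunit b (atpF) belongs. Its soluble head, CF1, holds the catalytic β subunit (atpB), the α subunit (atpA) and the small subunit ε (atpE), while the other subunits are encoded in the nucleus. In plant plastids atpI, atpH, atpF and atpA lie in a row and are transcribed together, and atpB and atpE form another joint transcript, in which their reading frames overlap in maize. The transcript of atpF carries an intron that is spliced out with the help of nuclear proteins. Poly(A) tails mark RNA for decay in plastids, so that RNA selected with oligo(dT) holds only some of the plastid transcripts.

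Leaves came from the bzip60-2 mutant and from the inbred line W22, at V5 (27 days after germination) and at V4 (20 days), from plants grown at a maximum daily temperature of 31, 33, 35 or 37 °C. The mutated gene encodes bZIP60, which switches on genes that help proteins fold in the endoplasmic reticulum, and the study set out to link that pathway with the reaction to heat. No group carried any further treatment, and the sampled tissue was lamina from the middle of the newest fully expanded leaf. Each of the 16 groups has 3 libraries of poly(A) RNA. The labels name neither the lesion of bzip60-2 nor the line in which it was made. The text of the series says that a replicate came from several plants, and the extraction text describes a sample from each of 3 plants. Plants of a temperature shared a pair of growth chambers, so the effects of chamber and of temperature cannot be told apart, and p values measure the spread between these libraries.

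FPKM summed to between 869999 and 941520 in the libraries, and plastid rows held 0.1112% to 0.2482% of that sum. The absolute depth is unknown. As a check of leaf tissue, the plastid genes psaA, psbA and rbcL were looked up. Of these, psaA of photosystem I was above 0 in all 48 libraries, as was psaB, which was not part of the check. The rows of psbA and rbcL, which encode abundant proteins of photosystem II and of carbon fixation, were listed at 0 in 39 and 36 libraries and reached at most 0.47 and 0.53 FPKM. Neither psbA nor rbcL thus met the check. Of the 6 plastid ATP synthase genes with a row, 5 passed the filter. The sixth, atpA, was listed at 0 in 47 libraries and reached 0.42 FPKM in the other, so the α subunit gives no value here. The values therefore describe those plastid transcripts that were captured and listed, not the whole plastid RNA. In bulk leaf RNA, fewer cells of a type and less RNA per cell cannot be told apart.

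Of the 3 genes, atpF was by far the highest on this scale per length. It lay between 40.02 and 187.45 FPKM over the 48 libraries with a median of 93.72, which ranks it 1399 of 22794 genes and 4 of 29 named plastid genes by mean level. The catalytic subunit gene atpB lay between 4.73 and 18.81 FPKM (median 11.27, rank 9487) and the c-ring gene atpH between 3.05 and 16.17 FPKM (median 7.59, rank 10973). Replicates agreed closely for atpF and atpB, with a median coefficient of variation within groups of 6.84% and 7.72%. They scattered more for atpH, with a median of 23.4% and up to 50.6%.

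Across the 16 groups, atpF and atpB had the same extremes. The group mean of atpF ran 4.15-fold, with its top at 171 ± 16.4 FPKM in W22 V4 at 37 °C and its bottom at 41.3 ± 1.76 FPKM in bzip60-2 V5 at 33 °C (mean ± SD, n = 3, here and below). For atpB the same groups gave 17.6 ± 1.07 and 5.01 ± 0.157 FPKM, a 3.51-fold span. For atpH the top was W22 V4 at 31 °C, with 14.3 ± 2.57 FPKM, and the bottom was bzip60-2 V5 at 35 °C, with 4.46 ± 1.27 FPKM, a 3.21-fold span.

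In the order of the 16 group means of atpF, 7 of 15 neighbouring groups had libraries that did not overlap, and 8 overlapped. Below W22 V4 at 37 °C came W22 V4 at 35 °C (146 ± 4.10 FPKM), bzip60-2 V4 at 35 °C (135 ± 12.4), W22 V5 at 37 °C (135 ± 1.65), bzip60-2 V4 at 37 °C (126 ± 1.86) and bzip60-2 V5 at 37 °C (108 ± 2.16). All 4 groups at 37 °C were thus among the upper 6. A middle set followed at like levels, with W22 V4 at 33 °C (96.8 ± 8.06), W22 V4 at 31 °C (96.2 ± 6.59), W22 V5 at 35 °C (96.1 ± 4.51), bzip60-2 V4 at 33 °C (86.5 ± 2.67) and bzip60-2 V4 at 31 °C (86.1 ± 7.91). The lowest 5 were all V5 groups, with W22 at 31 °C (70.0 ± 6.20), bzip60-2 at 35 °C (63.3 ± 7.48), W22 at 33 °C (50.8 ± 6.51), bzip60-2 at 31 °C (47.2 ± 3.22) and bzip60-2 at 33 °C.

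The order for atpB was a slope with a single step. Libraries of neighbouring groups were apart at 1 of 15 places, between bzip60-2 V4 at 31 °C (9.34 ± 1.30 FPKM) and W22 V5 at 31 °C (6.98 ± 0.420 FPKM). Below that step lay the 5 V5 groups that were also lowest for atpF. For atpH all 15 neighbours overlapped, so its order cannot be read group by group. The 4 groups at 37 °C stood at places 9, 12, 13 and 15 of 16 for atpH.

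**Figure D1:**
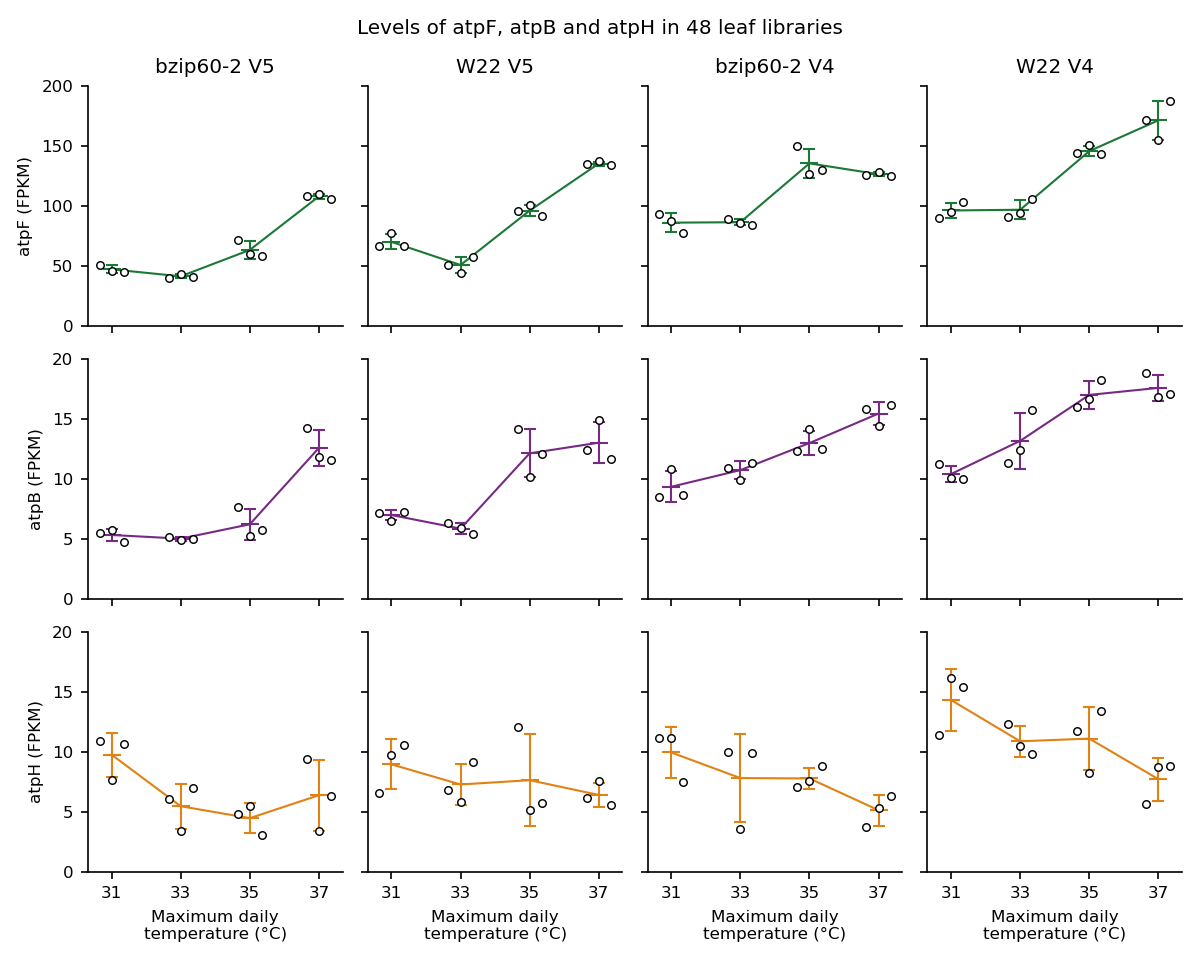
FPKM of atpF (top row), atpB (middle) and atpH (bottom) against the maximum daily temperature in °C, in bzip60-2 V5, W22 V5, bzip60-2 V4 and W22 V4. Open points are the 3 libraries of a group and the line joins group means with bars of 1 SD; atpF and atpB end highest at 37 °C in every series except atpF of bzip60-2 V4, while atpH is highest at 31 °C in every series.

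Heat went with higher atpF, the stator subunit b. In bzip60-2 V5 leaves atpF measured 108.52, 109.8 and 105.59 FPKM at 37 °C, against 50.83, 45.89 and 44.77 FPKM at 31 °C. In W22 V5 leaves it measured 134.63, 137.19 and 134.11 FPKM at 37 °C, against 66.28, 77.18 and 66.61 FPKM at 31 °C. At both genotypes all V5 libraries at 37 °C lay above all those at 31 °C. In bzip60-2 V4 leaves atpF measured 125.61, 128.6 and 125.18 FPKM at 37 °C, against 93.23, 87.4 and 77.57 FPKM at 31 °C. In W22 V4 leaves it measured 171.93, 154.7 and 187.45 FPKM at 37 °C, against 90.33, 95.02 and 103.34 FPKM at 31 °C. The libraries of the temperatures were apart at V4 as well.

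On the log2(FPKM + 1) scale the change of atpF at 37 against 31 °C was 1.18 in bzip60-2 V5, 0.94 in W22 V5, 0.55 in bzip60-2 V4 and 0.82 in W22 V4 (SE 0.0813 each). By limma over 22794 genes the adjusted p was 1.93e-15, 1.92e-12, 3.23e-07 and 6.29e-11 in that order, so atpF rose in all 4 series. Many genes did: at 37 against 31 °C, 20.8% of all genes were called higher in bzip60-2 V5, 21.9% in W22 V5, 33.5% in bzip60-2 V4 and 26.6% in W22 V4. The comparison in bzip60-2 V4 crosses a division of the libraries that the labels do not name. The division was drawn in these data at 10 FPKM of a single gene, Zm00001d033132, and what underlies it was not tested. With a model term for that division the change of atpF there was 0.35 (adjusted p = 0.0558), and scaled to other plastid transcripts it was 0.29 (0.00411).

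The catalytic subunit gene atpB moved the same way. It measured 14.28, 11.85 and 11.6 FPKM at 37 °C in bzip60-2 V5 leaves, against 5.51, 5.72 and 4.73 FPKM at 31 °C. In W22 V5 leaves it measured 12.42, 14.93 and 11.69 FPKM at 37 °C, against 7.19, 6.5 and 7.26 FPKM at 31 °C. No library at 37 °C came down to the level of one at 31 °C. In bzip60-2 V4 leaves atpB measured 15.82, 14.38 and 16.13 FPKM at 37 °C, against 8.51, 10.84 and 8.67 FPKM at 31 °C. In W22 V4 leaves the values were 18.81, 16.85 and 17.09 FPKM at 37 °C, against 11.2, 10.04 and 9.97 FPKM at 31 °C. The V4 libraries of the temperatures were apart too. The log2 changes were 1.10 (adjusted p = 1.33e-10), 0.81 (2.22e-07), 0.67 (4.18e-06) and 0.70 (2.59e-06) in bzip60-2 V5, W22 V5, bzip60-2 V4 and W22 V4 (limma, SE 0.114 each), so atpB rose in all 4.

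The c-ring gene atpH went the other way. In bzip60-2 V4 leaves it measured 3.75, 5.3 and 6.33 FPKM at 37 °C, against 11.18, 11.14 and 7.49 FPKM at 31 °C. In W22 V4 leaves it measured 5.63, 8.71 and 8.8 FPKM at 37 °C, against 11.37, 16.17 and 15.38 FPKM at 31 °C. The V4 libraries at 37 °C were all below those at 31 °C. The log2 changes were -0.84 in bzip60-2 V4 and -0.82 in W22 V4 (SE 0.299 each, limma adjusted p = 0.0166 and 0.0225), a direction called for 21.7% of all genes in the mutant and 19.7% in W22.

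Those calls of atpH rest on single libraries. In bzip60-2 V4 the call was lost when replicate 1 or 2 of 31 °C or the first of 37 °C was left out, with changes of -0.75, -0.75 and -0.67. With the term for the division of the libraries the change was -1.13 (adjusted p = 0.115). In W22 V4 it was lost when replicate 2 or 3 of 31 °C or the first of 37 °C was left out, with changes of -0.73, -0.76 and -0.64. At V5 atpH measured 9.36, 3.41 and 6.35 FPKM at 37 °C in bzip60-2 leaves, against 10.93, 7.66 and 10.66 FPKM at 31 °C. In W22 V5 leaves it measured 6.14, 7.52 and 5.54 FPKM at 37 °C, against 6.59, 9.69 and 10.56 FPKM at 31 °C. The V5 groups overlapped in both genotypes. The log2 changes there were -0.61 (limma adjusted p = 0.0819) and -0.41 (0.278), in comparisons in which 32.8% and 22.3% of all genes were called lower. The call was gained in bzip60-2 V5 without replicate 1 at 37 °C (-0.90) and when scaled to other plastid transcripts (-0.95). No difference of the atpH change between genotypes or stages passed, with adjusted p for 37 against 31 °C between 0.545 and 0.983.

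**Figure D2:**
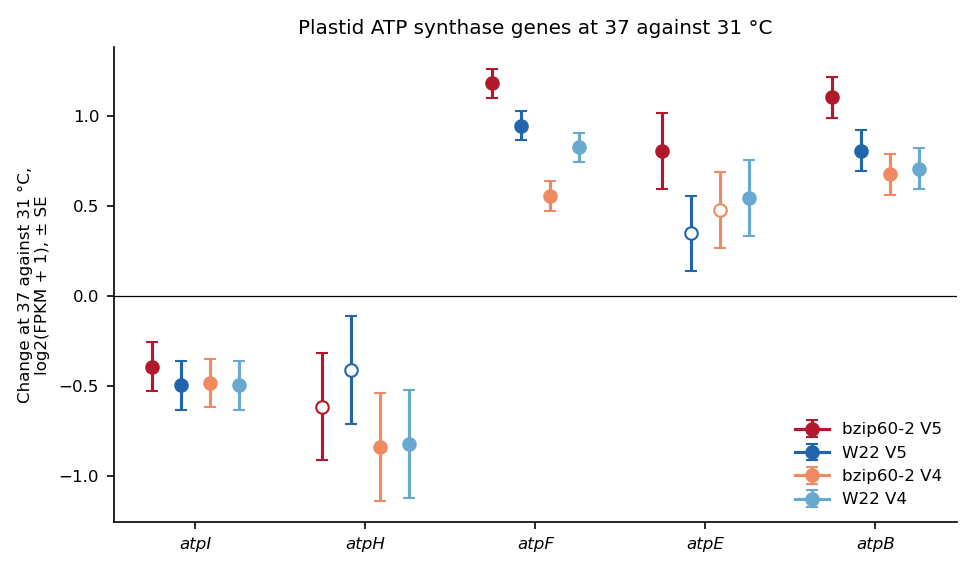
Change at 37 against 31 °C of the 5 plastid ATP synthase genes that were tested, in log2(FPKM + 1) with bars of 1 SE, for 4 series of genotype and stage. Filled points passed an adjusted p of 0.05 (limma over all genes). The points of atpF and atpB lie above 0 in all 4 series and those of atpI and atpH below 0 in all 4. All points of atpF, atpB and atpI passed, atpH passed at V4 only, and atpE passed in 2.

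The intermediate temperatures placed the rise of atpF above 33 °C. At 33 against 31 °C atpF was close to level at V4, with log2 changes of 0.01 in bzip60-2 and 0.01 in W22, though on scaling to other plastid transcripts it was -0.22 in bzip60-2 and passed (adjusted p = 0.0266). At V5 it fell in W22, where it measured 50.72, 44.28 and 57.3 FPKM at 33 °C against 66.28, 77.18 and 66.61 FPKM at 31 °C, a log2 change of -0.46 (limma adjusted p = 6.38e-06). All 3 libraries at 33 °C were below those at 31 °C, in a comparison in which 12.0% of all genes were called lower. Scaled to other plastid transcripts, the change in W22 V5 was -0.0831 and did not pass, and under size-factor scaling it was -0.80. In bzip60-2 V5 the change was -0.19 (adjusted p = 0.0670), with 40.02, 43.33 and 40.63 FPKM at 33 °C against the values at 31 °C above. It passed under size-factor scaling (-0.22, 0.0167), with array weights (adjusted p = 0.0361) and in a fit of the compared groups alone (adjusted p = 0.0428).

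The step came between 33 and 35 °C. At 35 °C atpF measured 71.93, 59.61 and 58.43 FPKM in bzip60-2 V5, 95.54, 100.85 and 91.88 FPKM in W22 V5, 149.64, 126.64 and 130.13 FPKM in bzip60-2 V4, and 143.73, 150.4 and 142.94 FPKM in W22 V4. At 35 against 33 °C the log2 changes were 0.60, 0.91, 0.64 and 0.59 in that order, and all passed (limma adjusted p = 1.05e-07, 3.80e-12, 5.17e-08 and 2.07e-07). Called higher in these comparisons were 16.9%, 13.0%, 25.2% and 31.1% of all genes. At 37 against 35 °C atpF rose further in bzip60-2 V5 (0.77, adjusted p = 4.47e-10) and in W22 V5 (0.49, 3.97e-06). In W22 V4 the change was 0.23 (0.0238), and the call was lost without replicate 1 or 3 of 35 or of 37 °C (0.16 to 0.22). It was also lost with the term for the division of the libraries, which falls within W22 V4 at 37 °C (0.16, 0.165), with array weights (0.20) and in a fit of the compared groups alone (adjusted p = 0.0660). In bzip60-2 V4 it was -0.09 (0.413), and under size-factor scaling -0.20 (0.0454). At 37 against 35 °C 16.0% of all genes were called higher in bzip60-2 V5 and 15.9% in W22 V4, and in W22 V5 45.9% were called in either direction.

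For atpB the same steps were less even. At 35 against 33 °C it rose in W22 V5, with 14.14, 10.13 and 12.11 FPKM at 35 °C against 6.28, 5.87 and 5.39 FPKM at 33 °C (log2 change 0.93, limma adjusted p = 9.97e-09). In bzip60-2 V5 it measured 7.68, 5.25 and 5.7 FPKM at 35 °C against 5.19, 4.89 and 4.96 FPKM at 33 °C (0.25, adjusted p = 0.0786), and rose by 0.92 at 37 against 35 °C (1.66e-08). The change at 35 °C passed there without replicate 2 of 35 °C (0.34) and under size-factor scaling (0.30). At V4 the change of atpB at 35 against 33 °C was 0.25 in bzip60-2 (0.0876) and 0.36 in W22 (0.0119). The call in W22 ended on leaving out replicate 1 of 33 °C (0.26) or replicate 3 of 35 °C (0.31), under size-factor scaling (0.17), on scaling to other plastid transcripts (0.09) and in a fit of the compared groups alone (adjusted p = 0.0742).

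Over the 4 temperatures together, moderated F tests of the same model passed for atpF and atpB in all 4 series. The largest adjusted p was 3.35e-10 for atpF and 1.45e-05 for atpB, both in bzip60-2 V4. For atpH the F test passed in bzip60-2 V5 (adjusted p = 0.0212), where the level was lowest at 35 °C (4.84, 5.5 and 3.05 FPKM), and in no other series (0.0792, 0.605 and 0.0995 in bzip60-2 V4, W22 V5 and W22 V4). In bzip60-2 V5 the log2 change of atpH was -0.77 at 33 °C (adjusted p = 0.0376) and -0.99 at 35 °C (0.00712) against 31 °C, where 18.1% and 22.8% of all genes were called lower. The call at 33 °C ended on leaving out the first or last replicate of 31 °C or the second of 33 °C (-0.68, -0.70 and -0.51), and that at 35 °C on leaving out its replicate 3 (-0.79). The call at 33 °C was also lost on scaling to other plastid transcripts (-0.71, 0.0538) and with no filter on low values (adjusted p = 0.0572). The F test passed for 72.8%, 81.0%, 72.2% and 66.0% of all genes in bzip60-2 V5, W22 V5, bzip60-2 V4 and W22 V4.

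Taking the 16 group means as the units, a line fitted along temperature, with separate intercepts for the 4 series, gave fitted log2 changes from 31 to 37 °C of 0.99 for atpF (SE 0.174, limma adjusted p = 0.00221), 0.87 for atpB (SE 0.149, 0.00180) and -0.61 for atpH (SE 0.144, 0.0108). All 3 passed, as did 15.8% of all genes (8.60% higher, 7.20% lower). Leaving out each group in turn kept the fitted change of atpF between 0.88 and 1.09, of atpB between 0.75 and 0.93 and of atpH between -0.71 and -0.51. All these fits passed, with a highest adjusted p of 0.0375 for atpH. Plants of a temperature shared a pair of growth chambers, so the 16 means are not independent units as the fit takes them. Leaving out a single group does not test this, as other groups of the same chambers remain. The plastid FPKM sum also moved with temperature: it was higher at 37 °C than at 31 °C in all 4 series, for example 1753 ± 28.4 against 1207 ± 33.6 FPKM in bzip60-2 V5. Scaled to 20 other plastid genes, the fitted changes were 0.70 for atpF, 0.60 for atpB and -0.88 for atpH, and all passed.

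Since a ratio within a library does not depend on how libraries are scaled, apart from the pseudocount, the genes were also set against each other. The ratio of atpF to atpH was 20.1 ± 10.7 at 37 °C in bzip60-2 V5, against 4.95 ± 0.932 at 31 °C. It was 21.5 ± 3.01 at 37 °C in W22 V5 against 8.11 ± 1.88 at 31 °C, 25.8 ± 7.00 against 8.85 ± 1.33 in bzip60-2 V4, and 23.2 ± 6.60 against 6.85 ± 1.04 in W22 V4. The ratio was thus higher at 37 °C in each series. The mean difference of the log2 ratio was 1.55 (exact permutation test within series, two-sided, 160000 arrangements, p = 1.25e-05, the smallest they can give, adjusted over 9 ratio tests 5.63e-05). For atpB to atpH it was 1.49 with the same p.

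No difference passed for the ratio of atpF to atpB. It was 8.66 ± 0.919 at 37 °C in bzip60-2 V5 against 8.90 ± 0.773 at 31 °C, and 10.5 ± 1.18 against 10.1 ± 1.55 in W22 V5. It was 8.21 ± 0.637 against 9.32 ± 1.48 in bzip60-2 V4, and 9.76 ± 1.04 against 9.30 ± 1.16 in W22 V4. The mean difference of the log2 ratio at 37 against 31 °C was 0.05 (exact permutation p = 0.412, adjusted 0.717), and it lay between 0.03 and 0.11 with each series left out.

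**Figure D3:**
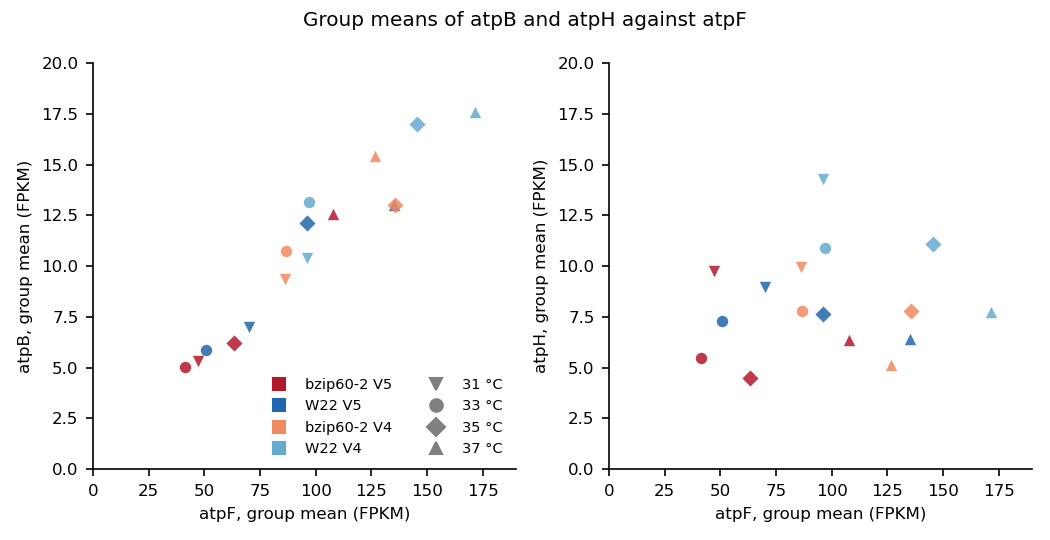
Group means of atpB (left) and atpH (right) against atpF, all in FPKM; each point is 1 of 16 groups, coloured by genotype and stage and shaped by temperature. The means of atpB follow those of atpF along a line (Pearson r = 0.97 on log2(FPKM + 1)), while those of atpH do not (r = 0.15).

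The pattern of each gene over the 16 group means was described by Pearson's r on log2(FPKM + 1) among 16214 genes with a highest group mean of at least 5 FPKM. These points share libraries and scale. The gene most like atpF was atpB (r = 0.97), followed by BGI_novel_G002748, a transcript that the table does not annotate (0.97), and ndhK of the plastid NADH dehydrogenase-like complex (0.96). Among plastid genes, the ribosomal protein gene rps4 came next (0.95). For atpB the nearest were BGI_novel_G002748 (0.97), atpF (0.97) and ndhK (0.97), and then rps4 among plastid genes (0.94). For atpH the nearest was psaB, a core subunit of photosystem I (0.91), followed by Zm00001d016160 (0.90) and Zm00001d036877 (0.88). Its next plastid genes were atpI (0.82, rank 30) and psaA (0.71, rank 215).

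The other tested genes of the complex fell on either side. The channel subunit gene atpI was lower at 37 °C in all 4 series, with log2 changes of -0.39 in bzip60-2 V5, -0.50 in W22 V5, -0.48 in bzip60-2 V4 and -0.50 in W22 V4, and all passed (limma adjusted p = 0.0133, 0.00255, 0.00251 and 0.00248). Its call in bzip60-2 V5 ended on leaving out the first replicate of 31 °C or the second of 37 °C (-0.35 and -0.36) and under size-factor scaling (-0.29), and that in W22 V4 without replicate 2 at 37 °C (-0.30) and in a fit of the compared groups alone (adjusted p = 0.131). The gene of subunit ε, atpE, whose reading frame overlaps that of atpB, had changes of 0.80 in bzip60-2 V5 (adjusted p = 0.00139), 0.35 in W22 V5 (0.189), 0.48 in bzip60-2 V4 (0.0521) and 0.54 in W22 V4 (0.0330). The call of atpE in W22 V4 ended on leaving out replicate 2 or 3 of 31 °C or replicate 3 of 37 °C, with the term for the division of the libraries (0.43), with array weights (0.49), with no filter (adjusted p = 0.0522) and under size-factor (0.48) and plastid scaling (0.32). It was gained in bzip60-2 V4 without replicate 1 of 31 °C (0.61) or replicate 2 or 3 of 37 °C (0.57 and 0.56), and in W22 V5 without replicate 1 of 37 °C (0.57). How reads in the overlap of atpB and atpE were divided is not known.

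Set in the order of the plastid protein genes of the RefSeq annotation of maize (assembly Zm-B73-REFERENCE-NAM-5.0, used for order only), the fitted changes over temperature showed lower genes on both sides of atpF. Of the genes between atpF and psaB, atpA was not tested and rps14 did not pass. From atpI the order is atpI, atpH, atpF, atpA, rps14, psaB, psaA and ycf3. In it atpI (-0.45), atpH (-0.61), psaB (-0.53), psaA (-0.40) and ycf3, whose product helps assemble photosystem I (-1.39), passed as lower, rps14 did not pass (-0.28, adjusted p = 0.130) and atpF passed as higher. The call of psaA was lost in 5 of 16 fits that left out a group. Between ycf3 and rbcL, the genes that passed were all higher, with rps4 (0.58), ndhK (0.58), atpE (0.57) and atpB, while ndhC did not pass (0.30, adjusted p = 0.110). Scaled to other plastid transcripts, rps4, ndhK and atpE no longer passed (0.28, 0.27 and 0.31), and rps14 passed as lower (-0.57, 0.0127). This grouping was seen after the values, and it is a description.

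**Figure D4:**
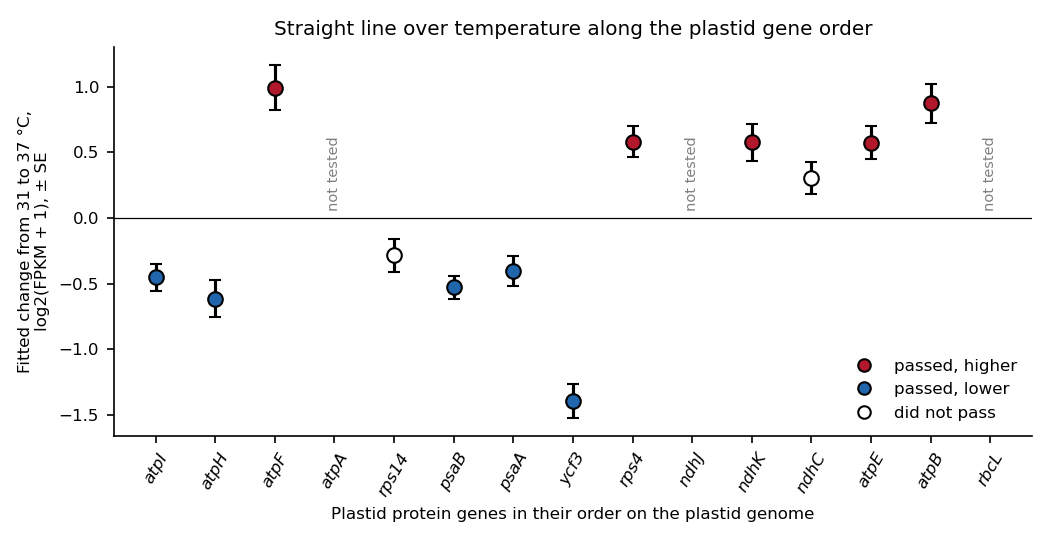
Fitted change from 31 to 37 °C in log2(FPKM + 1), with bars of 1 SE, for plastid protein genes in their order along the plastid genome from atpI to rbcL (not to scale). Blue points passed as lower and red as higher by limma over all genes: atpF stands at 0.99 between atpH at -0.61 and the lower genes psaB, psaA and ycf3. Between atpF and psaB, rps14 did not pass and atpA had too low values to be tested. Beyond ycf3, ndhJ and rbcL also had too low values to be tested.

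Other plastid genes of the photosynthetic complexes were split at 37 against 31 °C. Of 11 tested genes with symbols starting psa, psb, pet or ndh, 4 rose and 2 fell in bzip60-2 V5, while W22 V5 had 3 and 2, bzip60-2 V4 had 4 and 2, and W22 V4 had 5 and 3. Of all genes, 20.8% were called higher and 32.8% lower in bzip60-2 V5, 21.9% and 22.3% in W22 V5, while the shares at V4 were 33.5% higher and 21.7% lower in the mutant, and 26.6% higher and 19.7% lower in W22. Their median log2 changes were 0.23, 0.10, 0.06 and 0.13, beside -0.08, 0.01, 0.08 and 0.05 for all genes tested. The intron maturase gene matK, whose product helps splice plastid introns of which that of atpF is 1, rose in all 4 series by 1.70, 1.55, 1.77 and 1.42. The RNA polymerase subunit gene rpoC1 rose by 0.86, 0.56, 0.84 and 0.46 in the same order. In W22 V4 its call was lost without replicate 1 of 37 °C (0.32), on scaling to other plastid transcripts (0.27) and in a fit of the compared groups alone (adjusted p = 0.0887).

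The mutant had less atpF and atpB than W22. Averaged over the 4 temperatures, atpF was at 64.9 FPKM in bzip60-2 V5 and 88.0 FPKM in W22 V5, a log2 difference of -0.44 (SE 0.0406, limma adjusted p = 4.43e-12). At V4 it was at 109 FPKM in bzip60-2 and 128 FPKM in W22 (-0.21, SE 0.0406, 1.48e-05). For atpB the means were 7.28 FPKM in bzip60-2 V5 and 9.49 FPKM in W22 V5 (-0.36, SE 0.0571, 8.23e-07), and 12.1 FPKM in bzip60-2 V4 and 14.5 FPKM in W22 V4 (-0.24, SE 0.0571, 0.000368). Both genes were thus lower in the mutant at both stages. For atpH the means were 6.51 FPKM in bzip60-2 V5 and 7.56 FPKM in W22 V5 (-0.24, SE 0.149, 0.151), and 7.66 FPKM in bzip60-2 V4 and 11.0 FPKM in W22 V4 (-0.49, SE 0.149, 0.00363).

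These calls run against the bulk of the table. In this comparison 11.5% of all genes were called lower at V5 and 12.2% at V4, with 73.9% and 70.6% called in either direction, and the median over all genes was 0.20 and 0.19. With libraries scaled by size factors, which brings that median to 0.00 at both stages, the differences were -0.69 and -0.47 for atpF, -0.57 and -0.48 for atpB, and -0.44 and -0.73 for atpH at V5 and V4, and all 6 passed. Scaled to other plastid transcripts they were -0.21 and -0.09 for atpF, -0.16 and -0.12 for atpB, and -0.04 and -0.38 for atpH, of which atpF at V4 (adjusted p = 0.0526) and atpH at V5 (0.824) did not pass. Of 24 other named plastid genes, 2 were higher and 10 lower in the mutant at V5, and 5 and 8 at V4. The V4 comparison crosses the division of the libraries, and with a term for it atpB (-0.20, adjusted p = 0.221) and atpH (-0.69, 0.100) did not pass at V4, while atpF did (-0.35, 0.00169).

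The genotype difference of atpB was lowest at 35 °C and V5. There atpB measured 7.68, 5.25 and 5.7 FPKM in bzip60-2, against 14.14, 10.13 and 12.11 FPKM in W22, without overlap (log2 difference -0.87, limma adjusted p = 6.57e-08), where 9.63% of all genes were called lower. At 37 °C and V5 it measured 14.28, 11.85 and 11.6 FPKM in bzip60-2 against 12.42, 14.93 and 11.69 FPKM in W22, with overlap (-0.04, 0.770), though under size-factor scaling the difference was -0.30 and passed (0.0283), and scaled to other plastid transcripts it was 0.105. At V5 atpF was lower in bzip60-2 at all 4 temperatures, with log2 differences of -0.56, -0.28, -0.60 and -0.32 at 31, 33, 35 and 37 °C, and each passed. Called lower there were 10.1%, 11.8%, 9.63% and 9.06% of all genes. The call of atpF at 33 °C was lost without W22 replicate 3 (-0.19) and in a fit of the compared groups alone (adjusted p = 0.0518), and that at 37 °C when scaled to other plastid transcripts (-0.16). At V4 atpF passed at 37 °C (-0.43, 2.19e-05), with 125.61, 128.6 and 125.18 FPKM in bzip60-2 against 171.93, 154.7 and 187.45 FPKM in W22, where 11.3% of all genes were called lower. It did not pass at 31, 33 and 35 °C (-0.16, -0.16 and -0.11), though it did at 31 °C without bzip60-2 replicate 1 (-0.22), and at all 4 temperatures of V4 under size-factor scaling. For atpH no difference at a single temperature passed, with adjusted p between 0.0985 and 0.840. At V5 and 35 °C it passed without W22 replicate 2 (-0.80), and under size-factor scaling it passed there and at 31, 33 and 37 °C of V4.

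**Figure D5:**
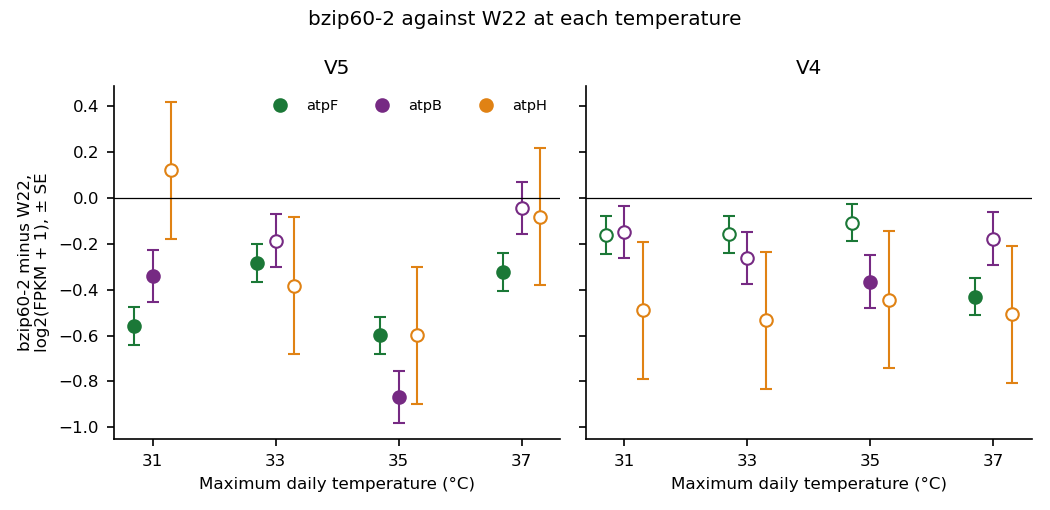
Difference of bzip60-2 minus W22 in log2(FPKM + 1), with bars of 1 SE, at each maximum daily temperature at V5 (left) and V4 (right). Filled points passed an adjusted p of 0.05 by limma over all genes: atpF passed at all 4 temperatures of V5, atpB stands lowest at 35 °C of V5 (-0.87), and atpH passed at none.

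Averaged over stages and temperatures, no difference between the genotypes passed for the ratios of the genes. The mean log2 ratio of atpF to atpB was 3.02 in bzip60-2 and 3.05 in W22 (24 libraries each, difference -0.03, permutation test within strata, two-sided, 100000 resamples, p = 0.589, adjusted 0.717). For atpF to atpH the difference was 0.04 (permutation p = 0.752, adjusted 0.752) and for atpB to atpH 0.07 (permutation p = 0.542, adjusted 0.717). For atpF to atpB the average joins opposite directions. At 35 °C the mean log2 ratio was higher in bzip60-2 than in W22 (3.17 against 2.90 at V5, 3.29 against 3.03 at V4). At 37 °C it was lower (3.01 against 3.29 at V5, 2.96 against 3.21 at V4). Genotype differences of the ratio at single temperatures were not tested.

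At the later stage the leaves had lower levels of atpF and atpB. In bzip60-2, atpF averaged 64.9 FPKM at V5 and 109 FPKM at V4 over the 4 temperatures (log2 difference -0.80, limma adjusted p = 4.88e-20), and atpB 7.28 FPKM at V5 and 12.1 FPKM at V4 (-0.73, 2.23e-14). In W22 the differences were -0.58 for atpF (1.02e-15) and -0.61 for atpB (3.16e-12). Both passed as lower at V5 at each of the 4 temperatures in both genotypes. The share of all genes called lower was 13.1%, 11.6%, 14.3% and 12.8% in bzip60-2 and 12.4%, 11.1%, 16.9% and 14.6% in W22 at 31, 33, 35 and 37 °C. In bzip60-2 at 37 °C the call of atpF (-0.23) was lost without V5 replicate 3 or V4 replicate 2 (-0.21 each). That of atpB (-0.28) was lost without V5 replicate 2 or 3 or V4 replicate 1 or 3 (-0.26 to -0.23), with no filter (adjusted p = 0.0623) and with a pseudocount of 0.1 (adjusted p = 0.0526). Scaled to other plastid transcripts, neither gene passed at 37 °C in either genotype, nor did atpB at 35 °C in W22 (-0.15). With the term for the division of the libraries atpB did not pass in W22 at 31, 35 and 37 °C (-0.46, -0.41 and -0.38). For atpH the difference was -0.23 in bzip60-2 (0.159) and -0.48 in W22 (0.00346). Of the single temperatures in bzip60-2, atpH passed as lower at 35 °C alone (-0.71, limma adjusted p = 0.0371). Under size-factor scaling it passed there (-0.96) and at 33 °C, and scaled to other plastid transcripts it did not pass at 35 °C (-0.32, 0.318).

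The share of all genes called lower at V5 was 15.2% in bzip60-2 and 15.8% in W22, with 82.2% and 81.5% called in either direction and a median over all genes of 0.30 and 0.29. Under size-factor scaling the differences were -1.14 and -0.93 for atpF, -1.02 and -0.93 for atpB, and -0.52 and -0.81 for atpH in bzip60-2 and W22, and all passed. Scaled to other plastid transcripts they were -0.42 and -0.30 for atpF and -0.38 and -0.35 for atpB, which passed, and 0.11 (adjusted p = 0.473) and -0.23 (0.144) for atpH. Of the other ATP synthase genes, atpI (-0.38 and -0.26) and atpE (-0.64 and -0.45) were also lower at V5 in bzip60-2 and W22, and all 4 differences passed. For atpI the values scaled to other plastid transcripts were -0.02 and 0.01 and did not pass, nor did atpE in W22 (-0.20). The ratio of atpF to atpH was lower at V5 than at V4 by 0.33 on the log2 scale (mean 3.22 at V5 and 3.56 at V4, permutation p = 0.0049, adjusted 0.0147), and that of atpB to atpH by 0.31 (permutation p = 0.00681, adjusted 0.0153). The ratio of atpF to atpB differed by -0.02 (permutation p = 0.638, adjusted 0.717).

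Some responses differed between stages or genotypes by a limma test of the difference itself. In bzip60-2 the change at 37 against 31 °C was larger at V5 than at V4 for atpF (by 0.63, adjusted p = 2.73e-05) and atpB (by 0.43, 0.0313), a test passed by 42.8% of all genes. With the term for the division of the libraries the difference of atpB was 0.37 (0.275). The call of atpB ended on leaving out V5 replicate 3 of 31 °C (0.36) or 1 of 37 °C (0.34), or V4 replicate 2 of 31 °C (0.32) or of 37 °C (0.38). In W22 the change at 33 against 31 °C was lower at V5 than at V4 for atpF (-0.47, 0.000707) and atpB (-0.52, 0.0057), a test passed by 57.1% of all genes. Neither passed when scaled to other plastid transcripts. At V5 the change of atpB at 35 against 31 °C was lower in bzip60-2 than in W22 (-0.53, 0.00994), a test passed by 33.8% of all genes, and under size-factor scaling it did not pass (-0.37, 0.0774). That of atpF at 33 against 31 °C was higher in bzip60-2 (0.28, 0.0471), a test passed by 46.9%, but on scaling to other plastid transcripts it was -0.0134. The call ended in 7 of 12 runs that each left out a library: bzip60-2 replicate 2 or 3 of 31 °C or of 33 °C (0.24 to 0.29), or W22 replicate 2 of 31 °C or 1 or 2 of 33 °C (0.18 to 0.28). The genotype difference of atpF averaged over temperatures was lower at V5 than at V4 (-0.23, 0.00166), a test passed by 38.2% of all genes. It was lost on scaling to other plastid transcripts (-0.12, 0.103) and with the term for the division of the libraries (-0.0934, 0.598). No such difference passed for atpH.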

How the data were processed

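RNA-seq of 48 maize leaf libraries was read from the authors' deposited table, which per the file headers gives the FPKM of each library. Libraries were made from poly(A) RNA and sequenced in single reads, per the labels' protocols. Per the submitters' processing notes, DESeq2 1.4.5, RSEM 1.2.12, Bowtie2 2.2.5, HISAT and HISAT2 2.0.4 were used, with no role stated. What build, annotation and strand setting served is not given in the sources used here. Plastid identifiers were matched to RefSeq symbols (61 of 61 rows). Of 30432 nuclear identifiers 0 matched, so nuclear subunits and cell type markers were not analysed here.

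Computed here were log2(FPKM + 1) values and a limma 3.58.1 model (R 4.3.3, trend, 16 group means, 48 libraries, 22794 genes), with Benjamini-Hochberg adjustment over all genes and a threshold of 0.05, two-sided. Ratios were tested by permutation (Python 3.11.15, numpy 2.4.6), and figures drawn with matplotlib 3.10.9. The fit was tested on simulated data. Alternatives were no filter, a pseudocount of 0.1, size factors, scaling to 20 other plastid genes, array weights, the replicate block, a term for the division of the libraries at 10 FPKM of Zm00001d033132 (14 below, 34 above), fits of the compared groups alone and each library left out. The division falls within W22 V4 at 37 °C and otherwise parts whole groups: the other W22 V4 groups and bzip60-2 V4 at 31 °C lie below.

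Named were the 3 genes throughout, fixed lists of related genes and, per gene, the 3 most alike over group means, of all genes and of plastid genes. Genes given along the plastid gene order go beyond that rule and were chosen after their values were seen. The genes and lists were chosen with earlier results of these data known.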

Additional observations from a re-analysis of the deposited data

Results flagged for a closer look

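Of 39 differences of a response computed for atpF, atpB and atpH, 7 passed the threshold (limma adjusted over all genes), and 0 of them concerned atpH. In the comparisons behind these 7 calls, between 33.8% and 57.1% of all genes passed, so such calls were common and do not set these genes apart. In bzip60-2 the change at 37 against 31 °C was larger at V5 than at V4, by 0.626 for atpF (adjusted p = 2.73e-05) and by 0.426 for atpB (0.0313). The difference for atpF passed under every alternative and with each library left out. That for atpB was lost without V5 replicate 3 of 31 °C (0.357) or 1 of 37 °C (0.338) or V4 replicate 2 of 31 °C (0.325) or of 37 °C (0.379) and with the term for the division of the libraries (0.370, adjusted p = 0.275).

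In W22 the change at 33 against 31 °C was lower at V5 than at V4, by -0.468 for atpF (adjusted p = 0.000707) and by -0.525 for atpB (0.0057). Both lost the call when scaled to other plastid transcripts (-0.0681 and -0.168). Plastid rows together summed to 1127 ± 58.2 FPKM at 33 °C in W22 V5, against 1415 ± 56.5 FPKM at 31 °C.

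At V5 the change of atpB at 35 against 31 °C was lower in bzip60-2 than in W22 by -0.529 (adjusted p = 0.00994), and under size-factor scaling by -0.369 (0.0774). At V5 the change of atpF at 33 against 31 °C was higher in bzip60-2 than in W22 by 0.275 (0.0471). That call was lost in 7 of 12 runs that each left out a library: bzip60-2 replicate 2 or 3 of 31 °C (0.257 and 0.240) or of 33 °C (0.242 and 0.287), or W22 replicate 2 of 31 °C (0.204) or 1 or 2 of 33 °C (0.278 and 0.183). Also, the difference was -0.0134 when scaled to other plastid transcripts. The genotype difference of atpF averaged over temperatures was lower at V5 than at V4 by -0.227 (0.00166). It lost the call when scaled to other plastid transcripts (-0.122) and with the term for the division of the libraries (-0.0934).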

How the results depend on the processing

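For the temperature, genotype and stage comparisons of atpF, atpB and atpH, 627 alternatives of 30 results were run: 605 kept direction and call, 14 lost the call and 6 gained it. The other 2 turned round without passing on either side: atpH for stage in bzip60-2 on scaling to other plastid transcripts (0.112), and the ratio of atpF to atpB at 37 against 31 °C with a pseudocount of 0.1 (-0.0121). Calls changed in 17 of 204 alternatives of atpH, 2 of 204 of atpF and 1 of 204 of atpB, and the cause was not tested. Most alternatives left out a single library, group or series. A difference averaged over temperatures had 24 runs that each left out a library, and one at 37 against 31 °C had 6. The counts thus mostly weigh such runs, not other scalings or models. Size factors gave calls to atpH for genotype at V5 (-0.44) and for stage in bzip60-2 (-0.52). Scaling to other plastid transcripts gave atpH the call at 37 against 31 °C in bzip60-2 V5 (-0.95) and ended that of atpF for genotype at V4 (-0.0904) and of atpH for stage in W22 (-0.23). Array weights gave atpH the call in bzip60-2 V5 (-0.69) and ended it in W22 V4 (-0.84). The term for the division of the libraries, which rests on 1 group that holds both kinds, ended the calls of atpH (-1.13) and atpF (0.35) at 37 against 31 °C in bzip60-2 V4, of atpH (-0.69) and atpB (-0.20) for genotype at V4 and of atpH for stage in W22 (-0.75). With each library left out, atpH at 37 against 31 °C ran between -1.01 and -0.67 in bzip60-2 V4, -0.97 and -0.64 in W22 V4 and -0.90 and -0.29 in bzip60-2 V5. For stage in bzip60-2 it ran between -0.33 and -0.14, and it passed without replicate 2 of bzip60-2 V4 at 33 °C. Among the other results given, scaling to other plastid transcripts turned atpI for stage in W22 (0.00902), atpF at 33 against 31 °C in bzip60-2 V4 (-0.220) and W22 V4 (-0.0151), the genotype difference at V5 and 37 °C of atpH (0.0567) and atpB (0.105) and at V4 of atpF at 31 °C (0.00606) and 35 °C (0.117), and atpF for the difference between genotypes at 33 against 31 °C and V5 (-0.0134). Size factors turned atpH for genotype at V5 and 31 °C (-0.241), array weights its genotype difference at 37 against 31 °C and V4 (0.0178), and the term for the division of the libraries atpF at 33 against 31 °C in bzip60-2 V4 (-0.190). Leaving out each library in turn, 18 runs turned a difference that did not pass. At 33 against 31 °C atpF ran between -0.0620 and 0.0691 in bzip60-2 V4 and between -0.0576 and 0.0598 in W22 V4. The genotype difference at V5 ran between -0.0632 and 0.269 for atpH at 31 °C, and at 37 °C between -0.369 and 0.247 for atpH and between -0.132 and 0.0516 for atpB. For atpH the genotype difference in the change at 37 against 31 °C ran between -0.490 and 0.126 at V5 and between -0.204 and 0.154 at V4, and its stage difference in bzip60-2 between -0.0633 and 0.553. The replicate block ended 1 call, that of the difference of atpF between genotypes at 33 against 31 °C and V5 (0.28, adjusted p = 0.0518), and changed no other. The correlations of same-numbered replicates at 37 and 31 °C were -0.106 to 0.131, so the numbers showed no pairing of libraries between these temperatures. Pairing by number between genotypes or stages was not looked at. The table holds no counts, so intervals based on counts cannot be given for low genes such as atpH.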

Other observations

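The ATP synthase of mitochondria, which makes ATP in respiration, was measured in the same libraries. Its genes have 5 rows in the table, atp4, atp6, atp8 and 2 copies of atp1 with the same values, and the filter on low values left atp4, atp6 and atp8. At V5 against V4, averaged over temperatures, atp4, atp6 and atp8 were higher in both genotypes, where 82.2% of all genes were called in bzip60-2, 15.2% of all as lower, and 81.5% in W22, 15.8% as lower, so that most genes called were higher. In bzip60-2 the log2 differences were 1.39, 0.85 and 0.75, and in W22 they were 0.96, 0.61 and 0.77 (limma adjusted p at most 1.20e-09). Subunit gene atp4 averaged 10.8 FPKM at V5 and 3.71 FPKM at V4 in bzip60-2.

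At 37 against 31 °C and V4, atp4, atp6 and atp8 rose in bzip60-2 (0.87, 0.97 and 0.69) and in W22 (1.2, 1.46 and 0.68), where 33.5% of all genes were called higher in bzip60-2 and 26.6% in W22. With the term for the division of the libraries, atp4 (0.59) and atp8 (0.60) lost the call in bzip60-2 V4, and atp8 lost it in W22 V4 in a fit of the compared groups alone (adjusted p = 0.0571). At V5, atp8 rose (0.58) and atp6 fell (-0.45) in bzip60-2, where atp4 (0.31) did not pass. In W22 V5 atp4 rose (1.29), while atp6 (0.33) and atp8 (0.27) did not pass. Of all genes at V5, 20.8% were called higher and 32.8% lower in bzip60-2, and 21.9% higher in W22. The call of atp8 in bzip60-2 V5 was lost with a pseudocount of 0.1 (adjusted p = 0.121) and on scaling to other plastid transcripts (0.34).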
